A study of Homo sapiens with 6 samples.

Results

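The experiment described here is the knockdown of EHMT2 by small interfering RNA (siRNA) in parental HCT116 cells, an established human colorectal carcinoma line. It consists of 2 of the 6 RNA-seq libraries of the series, chosen by their sample labels: wild-type HCT116 cells given EHMT2 siRNA and wild-type HCT116 cells given a control siRNA. Wild-type cells left untransfected were read as another reference, and the same pair of siRNA libraries in HCT116 cells resistant to 5-fluorouracil (5-FU), a pyrimidine analogue used against colorectal cancer, was set beside it. No other allele, agent or treatment is named for these groups, and the sources used here do not give the siRNA sequence, its dose or the time after transfection. Each condition is 1 library, so no difference between libraries has a replicate check, no test was made and no p-value or standard deviation is given. A "higher" or "lower" below describes these libraries.

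EHMT2 encodes G9a, the enzyme that places mono- and dimethyl marks on lysine 9 of histone H3, mostly in euchromatin. It works as a heterodimer with the closely related GLP, the product of EHMT1, and its mark is associated with silenced genes. G9a is often abundant in colorectal tumours, where it has been studied as a target for inhibitors.

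The values are FPKM, fragment counts scaled to transcript length and to the mapped fragments of a library, for 19942 gene symbols. The FPKM of the untransfected, control siRNA and EHMT2 siRNA libraries summed to 446143, 392758 and 360695, and 11408, 11324 and 11722 genes had an FPKM of 1 or more. The 100 highest genes held 49.0%, 42.0% and 35.2% of the sum in that order, and the genes of mitochondrial DNA held 26.2%, 22.0% and 18.0%. The read depth is unknown. Of 14 markers of colorectal epithelium, 8 had an FPKM of 1 or more in each of these libraries, with summed FPKM of 1776, 1889 and 2419, and VIL1, CDX1, LGR5, ASCL2 and CEACAM5 were listed at 0 in all of them. Of markers of other cell types, 4 of 4 endothelial, 5 of 6 fibroblast and 3 of 6 haematopoietic markers were listed at 0 in all 3 libraries. The fibroblast markers summed to 4.51, 6.01 and 9.79 FPKM and the haematopoietic ones to 1.28, 1.42 and 1.22.

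EHMT2 (ENSG00000204371, GRCh38 chromosome 6, 31879759 to 31897687) had an FPKM of 19.8 in the untransfected, 31.7 in the control siRNA and 8.58 in the EHMT2 siRNA library. The knockdown library was therefore the lowest of the 3 and held 27.1% of the control siRNA level. Throughout, a ratio is the log2 ratio of FPKM after adding 1, which understates the difference of low genes. For EHMT2 this ratio was −1.77 against control siRNA and −1.12 against untransfected cells. Its partner EHMT1 had 12.8, 21.6 and 19.3 FPKM, a ratio of −0.15 against control siRNA. EHMT2 was the only 2-fold lower gene among 19 measured H3K9 methyltransferases and readers (5.26% against 3.51% of all genes). None was 2-fold higher, where 7.48% of all genes were. UHRF1, a reader that links H3K9 methylation to maintenance of DNA methylation, had 25.9, 29.2 and 14.9 FPKM (ratio −0.93), and the methyltransferase gene SUV39H1 had 3.26, 4.72 and 2.05 FPKM (ratio −0.91). At the other end of the list stood PRDM2 at 0.57, PPHLN1 at 0.30 and CBX3, which encodes a heterochromatin protein, at 0.22. None of 10 measured H3K9 demethylases was 2-fold apart, with ratios from −0.49 for KDM3B to 0.59 for KDM4C. Of all measured genes 11% were 2-fold apart, so lists this short would hold few.

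A gene counts as measured when its FPKM was 1 or more in at least 1 library of a pair. Of 11948 genes measured in the siRNA pair, 894 (7.48%) were at least 2-fold higher with EHMT2 siRNA and 419 (3.51%) at least 2-fold lower, on the FPKM + 1 scale. Of these 1313 genes (11% of all), 68.1% were therefore higher, but this split depended on scaling. It was 55.0% when the median ratio of 0.09 was set to 0, 54.1% after quantile normalisation and 79.5% when the libraries were rescaled to the same sum, which moved the median of all genes to 0.21. Genes of low level made up much of the higher group: of the 20% with the lowest level 13.3% were 2-fold higher and 1.88% lower, and of the 20% with the highest level 4.64% and 5.73%. Among the 11408 genes at 1 FPKM or more in untransfected cells, a filter that uses neither siRNA library, 5.81% were 2-fold higher and 3.6% lower.

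**Figure D1:**
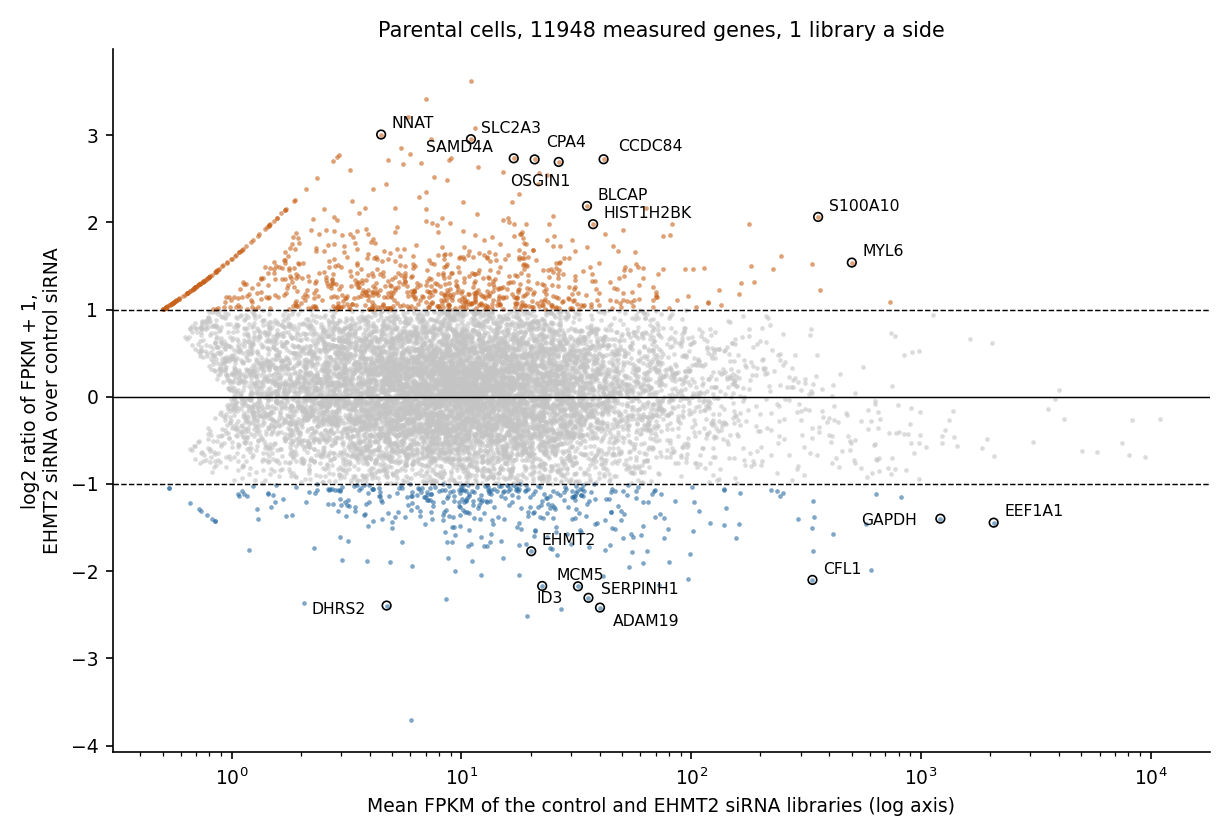
Log2 ratio of EHMT2 siRNA to control siRNA in parental cells (vertical axis) against the mean FPKM of both libraries (horizontal axis, log scale), 1 point per measured gene. Orange points are 2-fold higher (894), blue points 2-fold lower (419) and named genes are circled. The curved edge at the upper left holds genes listed at 0 with control siRNA.

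The references also differed from each other. Between control siRNA and untransfected cells, 111 of 11631 measured genes (0.954%) were 2-fold higher and 242 (2.08%) 2-fold lower. Against untransfected cells, 1114 of 12046 genes (9.25%) were 2-fold higher with EHMT2 siRNA and 698 (5.79%) lower. The 3 pairs of parental libraries share libraries, so their ratios are given side by side and not as independent results. Read this way, the gene groups showed different patterns: NRF2 and YAP target genes had medians above 0 against both references, as did the histone genes that could be measured, replication genes were lower against control siRNA but near the untransfected level, and ribosomal protein genes were lower at each step.

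**Figure D2:**
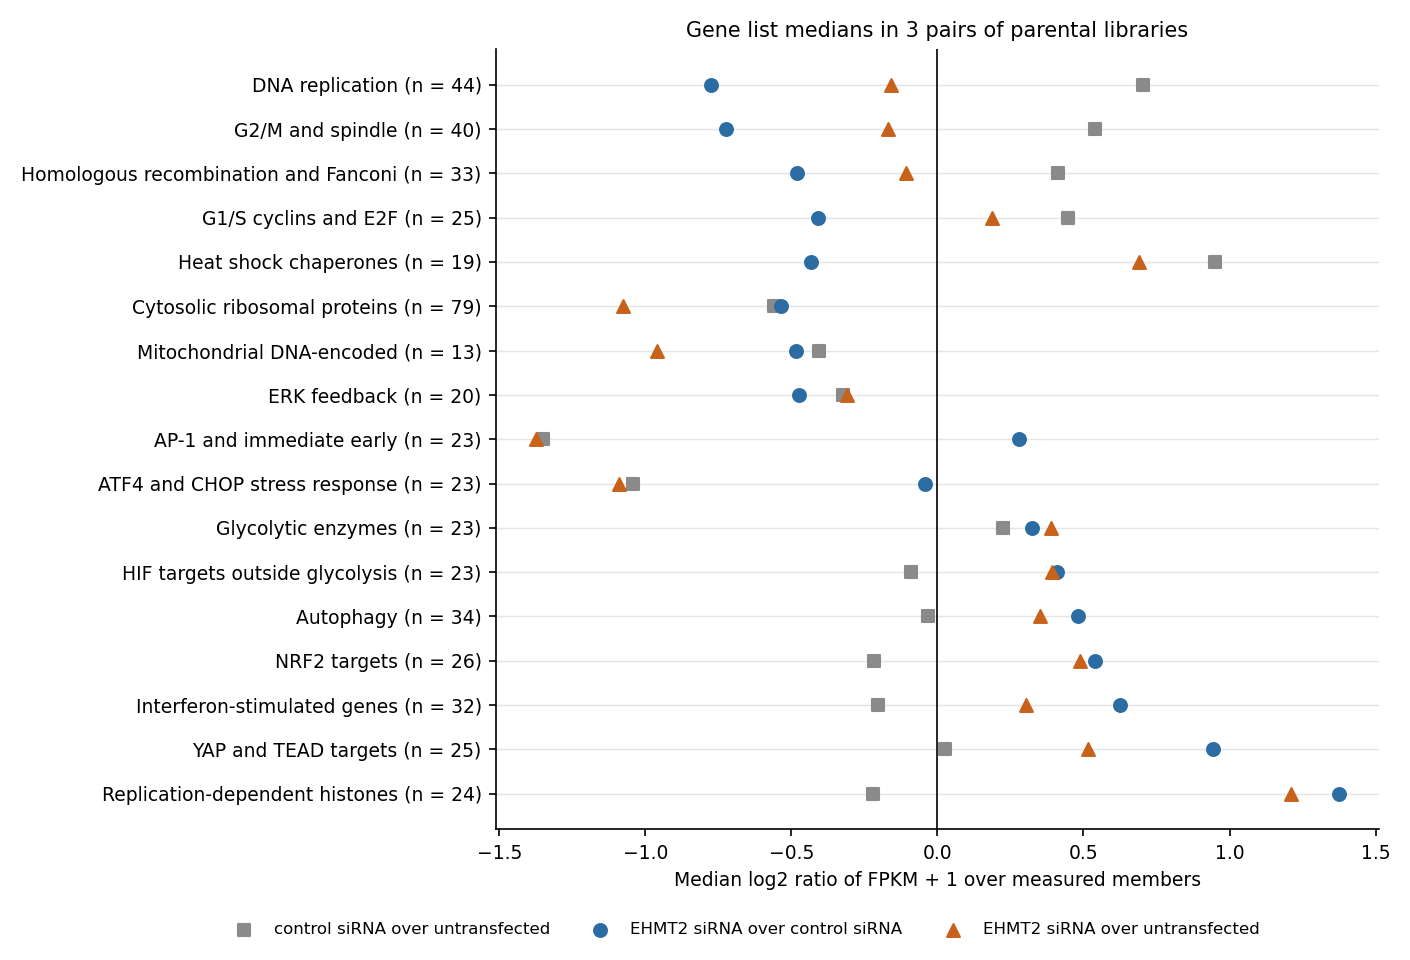
Median log2 ratio over the measured members of selected gene lists (horizontal axis) for control siRNA over untransfected (grey squares), EHMT2 siRNA over control siRNA (blue circles) and EHMT2 siRNA over untransfected (orange triangles). The replication and mitosis lists show blue and grey points on opposite sides of 0, while the histone, YAP and NRF2 lists have blue and orange points together to the right. Most members of the histone list reached 1 FPKM only with EHMT2 siRNA, which places its points to the right.

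Genes of DNA replication were lower than with control siRNA almost throughout. Of 44 measured members, 42 had a lower level with EHMT2 siRNA and 12 were 2-fold lower, 27.3% against 3.51% of all genes, with a median ratio of −0.77 against 0.09. Over all measured genes 56.2% were higher with EHMT2 siRNA than with control siRNA, and 53.9% were higher with control siRNA than in untransfected cells. The MCM2 to MCM7 proteins form the helicase that unwinds DNA at replication forks. MCM5 had 22.8 FPKM in the untransfected, 37.4 in the control siRNA and 7.54 in the EHMT2 siRNA library, a ratio of −2.17. MCM3 had 49.3, 82.1 and 26.8 FPKM (−1.58), and MCM2 had 23.2, 43.8 and 14.1 (−1.57). For all of these subunits the control siRNA library was highest and the EHMT2 siRNA library lowest. The other 2-fold lower members were MCM7, MCM4, the helicase loader CDT1, the origin protein ORC1, the helicase cofactor CDC45, the polymerase genes POLA1 and POLD2, the clamp-loader gene DSCC1 and TIMELESS, with ratios from −1.34 to −1.03. RPA1, which encodes a subunit of the single-strand binding protein, had a ratio of 0.14, and POLA2, which shares 35.1% of its exonic bases with other genes, had 0.18. The control siRNA library stood above the untransfected one for 42 of the 44 members, with a median ratio of 0.71. The median of EHMT2 siRNA over untransfected was −0.16, where that of all genes was 0.13. In that comparison 2 of the 44 were 2-fold lower, no excess over the 5.79% of all genes that were.

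Genes of mitosis showed the same order of libraries. Of 40 measured members of the G2/M and spindle list, 37 were lower than with control siRNA and 8 were 2-fold lower (20% against 3.51% of all genes). The list's median was −0.72, against 0.09 over all genes. Aurora kinase B (AURKB), which corrects chromosome attachment, had 38.6, 56.2 and 19.8 FPKM (−1.46). CDC20, the activator of the anaphase-promoting complex, had 74.8, 94.6 and 44.4 FPKM (−1.07). The phosphatase gene CDC25B (−1.62), the transcription factor genes MYBL2 (−1.60) and FOXM1 (−1.27), which drive late cell-cycle genes, and the securin gene PTTG1 (−1.16) were also 2-fold lower. PRC1 and NUSAP1 were at −1.55 and −1.53, but share 58.4% and 62.2% of their exonic bases with other genes. Not all mitotic genes followed: ANLN, ECT2 and HMMR had ratios of 0.12, 0.04 and 0.01. Against untransfected cells the list's median was −0.17. CDKN1A, which encodes the cyclin-dependent kinase inhibitor p21, had 74.4, 85.5 and 107.9 FPKM (0.33) and was not 2-fold apart.

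Genes of nucleotide supply include that of thymidylate synthase, a target of 5-FU. TYMS, the thymidylate synthase gene, had 46.1 FPKM in the untransfected, 92.4 in the control siRNA and 42.1 in the EHMT2 siRNA library, a ratio of −1.12 against control siRNA and −0.13 against untransfected cells, and it shares 46.6% of its exonic bases with other genes, mainly ENOSF1. The thymidine kinase gene TK1 had 55.3, 85.5 and 21.4 FPKM and was lower against both references, with ratios of −1.95 and −1.33. RRM2, the small subunit of ribonucleotide reductase, was at −1.08, SHMT1, which supplies one-carbon units, at −1.08, and DCTPP1 at −1.15 with 42.1% of its exonic bases shared. In the other direction stood RRM2B, an alternative small subunit of the same reductase (1.03). Of 24 measured members of this list, 18 were lower and 5 were 2-fold lower (20.8% against 3.51% of all genes), while 2 were 2-fold higher (8.33% against 7.48%). The median was −0.37, against 0.09 over all genes.

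The G1/S list gave 17 of 25 lower, with a median of −0.41 against control siRNA and 0.19 against untransfected cells. CDC25A (−1.30), E2F1 (−1.15) and CDK4 (−1.41, with 43.2% of its exonic bases shared) were 2-fold lower, 12% of the list against 3.51% of all genes. The cyclin D1 gene CCND1 had 113.7, 94.6 and 158.7 FPKM (0.74), and the CDK inhibitor gene CDKN1C had 5.17, 3.62 and 13.2 FPKM (1.62). Of 33 homologous recombination and Fanconi genes, 26 were lower. FANCD2, FANCG and EXO1 were 2-fold lower at −1.14, −1.10 and −1.04, 9.09% of the list against 3.51% of all genes.

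Promoters of the replication and mitosis genes are printed here because a short motif recurs in each group. The sequences are RefSeq promoters on GRCh38.p14, on the strand of the gene, 5′ to 3′, ending at the base before the annotated start, with the motif in capitals. In MCM3 (chr6:52284743-52284922, minus strand) the capitals mark TTTCCCGC, a form of the E2F site. In CDC20 (chr1:43358871-43358980, plus strand) and PRC1 (chr15:90994536-90994595, minus strand) they mark TTTGAA, the core of the cell cycle homology region, and CCAAT boxes.
MCM3: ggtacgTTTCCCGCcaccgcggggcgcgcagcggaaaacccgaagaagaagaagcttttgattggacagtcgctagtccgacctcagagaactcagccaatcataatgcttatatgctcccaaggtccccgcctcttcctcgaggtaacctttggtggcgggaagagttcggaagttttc
CDC20: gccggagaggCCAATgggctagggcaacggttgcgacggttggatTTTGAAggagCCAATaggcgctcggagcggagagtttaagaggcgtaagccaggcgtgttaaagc
PRC1: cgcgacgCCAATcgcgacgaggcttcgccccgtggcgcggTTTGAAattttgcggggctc
Both strands of the 300 bases from 250 before to 50 after each start were searched. An E2F site in the form TTTCCCGC or TTTGGCGC was found in 15 of 37 replication promoters (40.5%) and in 3.83% of the promoters of all 9649 measured genes that have one in the table, which is 80.8% of measured genes. TTTGAA was found in 23 of 34 G2/M promoters (67.6%) against 9.12%. A match describes the letters and is no evidence of binding.

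Replication-dependent histone genes stood at the opposite end. They encode the core and linker histones that package new DNA, and their messages normally end in a stem-loop in place of a poly(A) tail. The library kit selects polyadenylated RNA, so their FPKM here covers transcripts that carry a tail. Of 67 listed genes, 24 reached 1 FPKM in at least 1 of the siRNA libraries, and all were higher with EHMT2 siRNA. Of the 24, 21 were 2-fold higher (87.5% against 7.48% of all genes). Most of these passed only through the EHMT2 siRNA library and so had to be higher. With no filter the median over the list was 0.59, against 1.37 over these 24. Among the 10 that had 1 FPKM or more in untransfected cells, 9 were 2-fold higher than with control siRNA. Under that filter 5.81% of all genes were. The median ratio of the 10 was 1.92, against 0.06 over all genes under the same filter. HIST1H2BK had 21.6 FPKM in the untransfected, 14.6 in the control siRNA and 60.3 in the EHMT2 siRNA library (ratio 1.98). The linker histone gene HIST1H1C had 11.9, 7.11 and 31.0 FPKM (1.98), and HIST1H2BD had 7.06, 5.57 and 26.2 (2.05). In each of these the EHMT2 siRNA library was highest and the control siRNA library lowest. HIST1H2BC had 0.332, 0.762 and 8.58 FPKM (2.44), and HIST2H2BE 0.997, 0.517 and 6.18 (2.24). HIST2H2AA4 had 1.60, 1.61 and 16.4 FPKM (2.74), and its near-identical copy HIST2H2AA3 had a ratio of 2.71, and reads cannot be assigned surely to either. HIST3H2A was the exception among the 10, with 4.50, 1.62 and 3.69 FPKM (0.84).

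The 2 histone promoters printed here hold both motifs counted for this group. The capitals mark CCAAT boxes, in either orientation (CCAAT or ATTGG), and the TATA box TATAAA. HIST1H2BD (RefSeq H2BC5) is at chr6:26158011-26158120, plus strand, and HIST1H2BK (RefSeq H2BC12) at chr6:27146859-27146988, minus strand.
HIST1H2BD: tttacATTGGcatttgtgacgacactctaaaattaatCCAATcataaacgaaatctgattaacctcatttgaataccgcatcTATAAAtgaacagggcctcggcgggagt
HIST1H2BK: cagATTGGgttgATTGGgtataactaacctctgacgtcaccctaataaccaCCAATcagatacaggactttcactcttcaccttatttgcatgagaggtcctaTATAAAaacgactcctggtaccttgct
In these sequences the TATA box begins 28 and 27 bases before the start. A CCAAT box was found in 18 of 21 histone promoters (85.7%, against 36.8% of all measured genes) and TATAAA in 14 of 21 (66.7%, against 5.25%).

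Replacement histones and histone chaperones, which are made outside S phase or load histones onto DNA, did not follow the replication-dependent genes. Of 21 measured members 14 were lower, with a median of −0.66. H1F0, the linker histone of resting cells, had 547.6 FPKM in the untransfected, 200.5 in the control siRNA and 82.5 in the EHMT2 siRNA library, a ratio of −1.27. ASF1B and CHAF1A, chaperones that deliver histones to replicating DNA, were at −1.10 and −1.07, and H1FX at −1.06. H2AFJ was the 2-fold higher member, with 6.16, 5.40 and 12.8 FPKM (1.11).

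**Figure D3:**
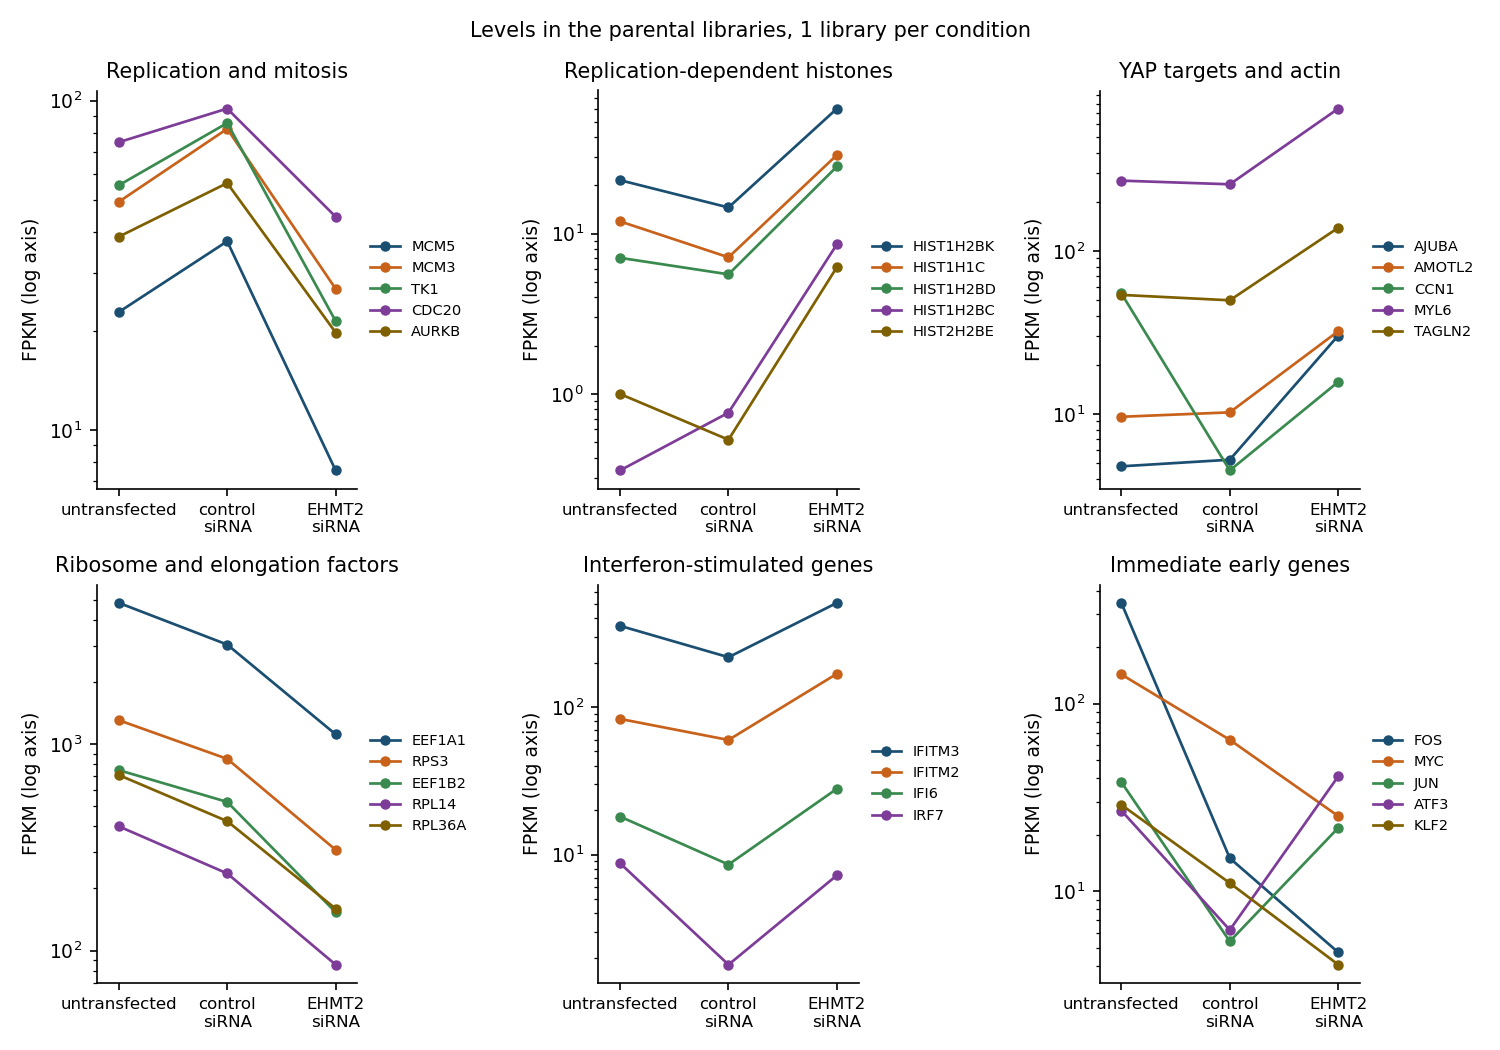
FPKM (vertical axes, log scale) of 4 or 5 genes from each of 6 groups in the untransfected, control siRNA and EHMT2 siRNA libraries of parental cells, 1 library per condition, with lines joining a gene's values. Replication and mitosis genes are highest with control siRNA, the histone genes are highest with EHMT2 siRNA, and ribosomal and elongation genes are lower at each step.

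Most cytosolic ribosomal protein genes, and the elongation factor genes named below, were lower with EHMT2 siRNA than in either reference. Of 79 cytosolic ribosomal protein genes, 71 were lower than with control siRNA, with a median of −0.53, and 6 were 2-fold lower (7.59% against 3.51% of all genes). Control siRNA was in turn below untransfected cells for 76 of 79, with a median of −0.56. Of the 79, 44 were 2-fold lower in the EHMT2 siRNA library than in untransfected cells, where 5.79% of all genes were. RPS3 of the small subunit had 1307, 848.5 and 307.7 FPKM (−1.46 against control siRNA), and RPL14 of the large subunit 399.9, 236.4 and 85.5 (−1.46). RPL36A was at −1.40, RPL30 at −1.15, RPS9 at −1.07, and RPS10, with 39.4% of its exonic bases shared, at −1.10. FAU (0.16), RPL9 (0.15) and RPL27 (0.13) were the highest. The elongation factor genes showed larger differences than the list of translation factors as a whole. Of its 36 members 16 were higher than with control siRNA and 6 were 2-fold lower (16.7% against 3.51% of all genes), with a median of −0.18. EEF1A1, which brings aminoacyl-tRNA to the ribosome, had 4835, 3036 and 1115 FPKM (−1.44), its exchange factor gene EEF1B2 had 748.5, 524.9 and 153.3 (−1.77) and EEF2, which moves the ribosome along, 1106, 874.9 and 403.4 (−1.11). EEF1G was at −1.98 with 99.9% of its exonic bases shared. EIF4EBP1 and EIF5A were also 2-fold lower, at −1.29 and −1.20, while EIF4G2 was at 0.82, EIF3M at 0.59 and EIF2S1 at 0.44. The summed FPKM of the library was 360695 with EHMT2 siRNA and 446143 in untransfected cells. These abundant genes are themselves part of that sum, and the part of scaling in their ratios was not tested. After quantile normalisation the median of the ribosomal list was −0.25, and EEF1A1, EEF2 and RPL30 were at −0.90, −0.85 and −0.84 and no longer 2-fold lower. With the libraries rescaled to the same sum, EEF2, RPS9 and RPS10 were at −0.99, −0.94 and −0.98 and the list median was −0.41.

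Targets of YAP and TEAD were higher. YAP and its partner TAZ enter the nucleus when Hippo signalling is low or the cytoskeleton is under tension, and bind DNA through TEAD proteins. Of 25 measured members, 20 were higher and 11 were 2-fold higher (44.0% against 7.48% of all genes). The median was 0.94 against control siRNA, 0.52 against untransfected cells and 0.02 for control siRNA over untransfected. Among the 25 at 1 FPKM or more in untransfected cells, 11 were 2-fold higher than with control siRNA, against 5.81% of all genes, with a median of 0.74. AJUBA, whose product restrains the LATS kinases, had 4.77, 5.24 and 30.3 FPKM (2.33). AMOTL2, of the angiomotin family that holds YAP in the cytoplasm, had 9.60, 10.2 and 32.2 FPKM (1.56), and the kinase gene LATS2 had 3.52, 3.59 and 10.8 (1.36). These feedback genes were about level in both references and higher in the knockdown library. WWC1, NT5E, CRIM1, ARHGEF17 and TEAD4 were also 2-fold higher, at 1.59, 1.91, 1.62, 2.23 and 1.18. The matricellular genes CCN1 and CCN2 behaved otherwise: CCN1 had 54.9, 4.50 and 15.7 FPKM, so that it was higher than with control siRNA (1.60) but below untransfected cells. CCN2 had 4.18, 1.23 and 9.01 FPKM (2.17), and GADD45B 15.8, 7.43 and 20.5 (1.35). The pathway's own factors went both ways: TEAD4 was higher, as given above, while WWTR1, which encodes TAZ, was at −0.95. TEAD3 was at −0.54 and TEAD2 at −0.48.

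The actin cytoskeleton list had members at both extremes of the comparison, and its median was 0.04. Myosin light chain genes were higher: MYL6 had 269.5, 256.0 and 745.5 FPKM (1.54), MYL12B had 264.1, 174.3 and 500.5 (1.52), MYL12A was at 1.46 and MYL9 at 1.23. The actin-binding genes TAGLN (1.64), TAGLN2 (1.46) and CNN3 (1.46) were 2-fold higher, as was ACTA2 at 1.36 with 30.1% of its exonic bases shared, while CNN1 was listed at 0 in both references and at 1.39 FPKM with EHMT2 siRNA. CFL1, which encodes the filament-severing protein cofilin 1, had 472.3, 547.9 and 127.0 FPKM and was at 23.2% of the control level, a ratio of −2.10. TLN1 and VCL, which link integrins to actin, had ratios of −1.37 and −0.79. Of the S100 and annexin genes, S100A10 had 99.9, 137.4 and 576.8 FPKM (2.06), ANXA2, whose product binds that of S100A10, had 590.5, 776.8 and 1484 (0.93), and S100A16 and S100A11 were 2-fold lower at −1.31 and −1.11.

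Immediate early genes differed more between untransfected cells and both siRNA libraries than between the siRNAs. The median of 23 measured members was −1.35 for control siRNA over untransfected, −1.37 for EHMT2 siRNA over untransfected and 0.28 between the siRNAs. FOS, a component of the dimeric factor AP-1, had 344.8 FPKM in the untransfected, 14.99 in the control siRNA and 4.71 in the EHMT2 siRNA library (−1.48). Its partner gene JUN had 38.1, 5.40 and 21.8 FPKM (1.83), and ATF3, a stress-induced factor of the same family, 26.9, 6.20 and 40.9 (2.54). Of these, ATF3 had its highest value in the knockdown library, and JUN lay between the references. FOSL2, another FOS relative, had 4.43, 6.17 and 13.6 FPKM (1.02) and NR4A1 had 23.0, 3.89 and 10.3 (1.21). MYC, a growth regulator, had 143.1, 64.1 and 25.1 FPKM (−1.32), and KLF2 had 28.9, 11.04 and 4.05 (−1.25), both lowest with EHMT2 siRNA. Genes of ERK feedback included PHLDA1 (−1.62), the EGFR ligand gene AREG (346.1, 152.8 and 51.7 FPKM, −1.54), ETV1 (−1.14) and DUSP6 (−1.06, with 40.5% of its exonic bases shared) on the lower side and SPRED3 (1.25) and EPHA2 (1.14) on the higher side, with a list median of −0.48 over 20 members.

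The AP-1 site was searched in the promoters of higher and lower genes, and 3 promoters of genes with large ratios that hold it are shown. TGACTCA and its complement TGAGTCA are in capitals. OSGIN1, an NRF2 target that limits growth, is at chr16:83953130-83953239, plus strand. CPA4, a carboxypeptidase gene, is at chr7:130293101-130293160, plus strand, and RHBDF1, which encodes an inactive rhomboid protein of EGFR-ligand trafficking, at chr16:72632-72711, minus strand.
OSGIN1: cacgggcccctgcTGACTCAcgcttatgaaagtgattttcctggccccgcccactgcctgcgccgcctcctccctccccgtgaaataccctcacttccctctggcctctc
CPA4: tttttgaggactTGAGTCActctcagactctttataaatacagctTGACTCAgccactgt
RHBDF1: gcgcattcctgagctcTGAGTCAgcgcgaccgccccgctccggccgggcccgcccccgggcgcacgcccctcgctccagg
OSGIN1 had 5.72, 4.75 and 36.9 FPKM in the untransfected, control siRNA and EHMT2 siRNA libraries (ratio 2.72). CPA4 had 5.25, 6.37 and 46.7 FPKM (2.69), and RHBDF1 had 3.58, 4.40 and 18.5 (1.85). The site was found in 45 of 695 promoters of 2-fold higher genes (6.47%), 1 of 320 of 2-fold lower genes (0.312%), 2.82% of all measured genes and 4.92% of the 27305 promoters of the table. Many of the 2-fold higher genes are of low level, and the shares were not matched for level. Some passed the filter only by being higher, such as TM4SF19, listed at 0 in both references and at 4.69 FPKM with EHMT2 siRNA. The shares of higher and lower genes, here and for the motifs below, were not counted again under a filter on untransfected cells. TATAAA was found in 10.4% of promoters of higher genes, 5% of lower genes and 5.25% of all measured genes, and the TEAD site CATTCC in 14.5%, 9.38% and 10.5%. E2F sites were in 1.15% of higher, 6.56% of lower and 3.83% of all measured genes.

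**Figure D4:**
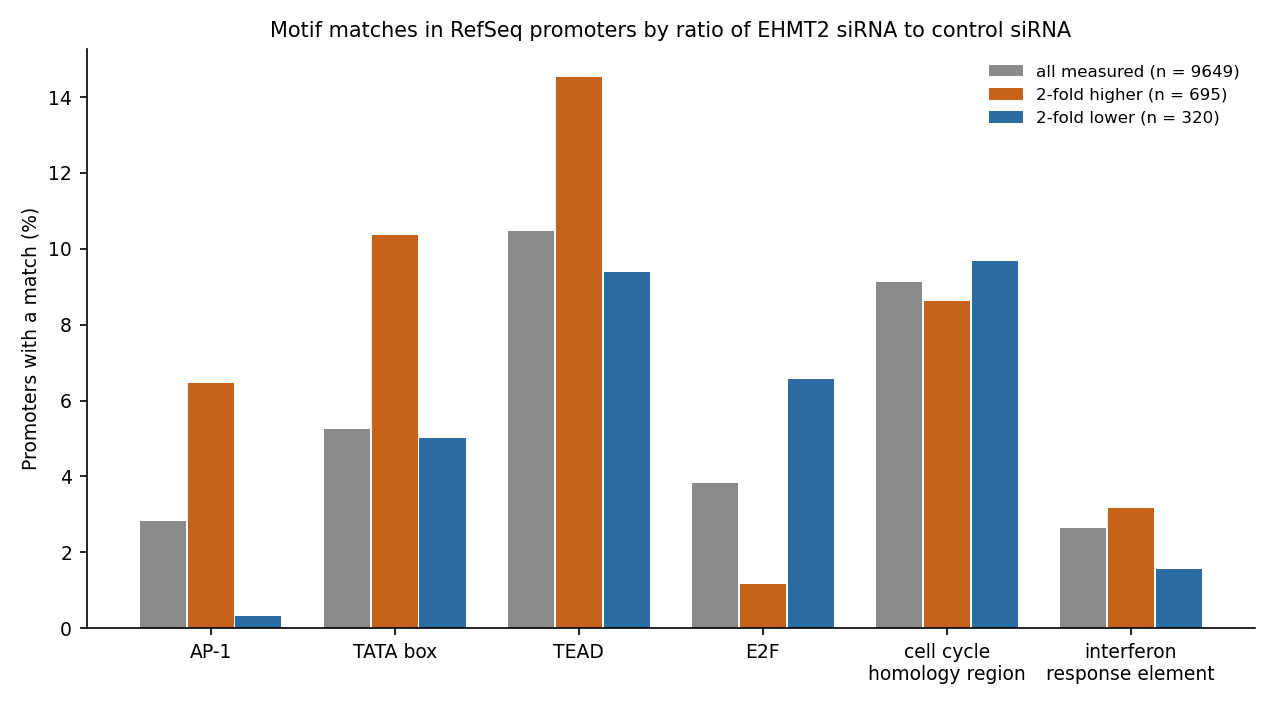
Share of RefSeq promoters with a motif match on either strand (vertical axis, percent) for all measured genes (grey, n = 9649), genes 2-fold higher (orange, n = 695) and 2-fold lower (blue, n = 320) with EHMT2 siRNA than with control siRNA. The AP-1 site was in 6.47% of higher and 0.312% of lower genes, and the E2F site in 1.15% and 6.56%. Some of the higher genes passed the filter only through the EHMT2 siRNA library, and the shares were not matched for level.

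Interferon-stimulated genes encode antiviral effectors and the factors that induce them. Of 32 measured members 28 were higher than with control siRNA and 8 were 2-fold higher (25% against 7.48% of all genes), with a median of 0.63. Over all measured genes 56.2% were higher. Among the 31 at 1 FPKM or more in untransfected cells, 27 were higher than with control siRNA. Of those, 7 were 2-fold higher, against 5.81% of all genes under that filter, and the median of the 31 was 0.62. The membrane proteins that block virus entry were abundant: IFITM3 had 354.4 FPKM in the untransfected, 217.2 in the control siRNA and 507.1 in the EHMT2 siRNA library (1.22) and IFITM2 had 83.0, 59.8 and 168.0 (1.47). IFI6 had 18.1, 8.58 and 28.0 FPKM (1.60). In these 3 genes the EHMT2 siRNA library was highest, although control siRNA lay below untransfected cells for each. IRF7, which induces interferon genes, had 8.76, 1.80 and 7.26 FPKM, so that its ratio was 1.56 against control siRNA and −0.24 against untransfected cells. IRF9 (1.70) and IFITM1 (1.08) were 2-fold higher but share 48.4% and 32.5% of their exonic bases. IFI27 was listed at 0 with control siRNA and at 1.18 FPKM with EHMT2 siRNA, so it could be measured only by being higher. OAS3 (−0.88), HERC6 (−0.36) and the RNA sensor gene IFIH1 (−0.25) were lower. Against untransfected cells the list's median was 0.30, where that of all genes was 0.13. Of the 32 members 5 were 2-fold higher and 1 was lower in that comparison, as were 9.25% and 5.79% of all genes.

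The interferon-stimulated response element is shown in 2 of these promoters, with GAAA, any 2 bases and GAAA in capitals, searched on both strands. IFI6 is at chr1:27672193-27672352 and IFITM3 at chr11:320861-320920, both on the minus strand.
IFI6: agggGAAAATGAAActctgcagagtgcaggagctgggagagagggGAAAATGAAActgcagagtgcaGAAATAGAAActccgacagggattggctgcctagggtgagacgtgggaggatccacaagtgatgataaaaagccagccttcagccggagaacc
IFITM3: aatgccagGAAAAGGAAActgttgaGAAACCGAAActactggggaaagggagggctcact
The element was found in 19 of 26 promoters of the list (73.1%) and in 2.64% of all measured genes. Over the 695 promoters of 2-fold higher genes the share was 3.17%.

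Stress and metabolic lists followed with smaller medians. Of 26 measured NRF2 targets, which defend against oxidants, 21 were higher and 7 were 2-fold higher (26.9% against 7.48% of all genes), with a median of 0.54. Among the 26 at 1 FPKM or more in untransfected cells, 6 were 2-fold higher, against 5.81% of all genes under that filter. MAFF and MAFG, the small partners of NRF2, had ratios of 2.58 and 1.68, and NFE2L2, the NRF2 gene itself, had 53.6, 32.3 and 66.8 FPKM (1.03). SRXN1 was at 1.66 with 85.0% of its exonic bases shared, and ABCC3 at 1.00. AKR1B10 was listed at 0 in both references and at 1.15 FPKM with EHMT2 siRNA, so it could be measured only by being higher. The commonly used NRF2 target NQO1 had 235.3, 88.5 and 68.0 FPKM (−0.37), with FTL at −0.85. Autophagy genes had a median of 0.48, with 8 of 34 2-fold higher (23.5% against 7.48%). They included MAP1LC3B, which marks autophagosomes (69.1, 34.5 and 127.4 FPKM, 1.85), its relatives GABARAPL1 (1.46) and GABARAPL2 (1.03), the cargo receptor gene OPTN (11.5, 13.2 and 38.5 FPKM, 1.47), DEPP1 (1.81), ATG4A (1.28), ATG2A (1.15) and the lysosomal regulator gene TFE3 (1.04). TFE3 had 12.3, 6.28 and 13.9 FPKM and was about level with untransfected cells (0.17). With untransfected cells as the reference the autophagy median was 0.35. Of the 34, 5 were 2-fold higher and 2 lower in that comparison, as were 9.25% and 5.79% of all genes.

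Among genes of glucose use, SLC2A3, a high-affinity glucose transporter gene, had 2.63, 1.74 and 20.3 FPKM (2.95), and the enolase gene ENO3 had 14.2, 7.24 and 29.1 (1.87). GAPDH went the other way, with 1627, 1764 and 668.7 FPKM (−1.40), with TPI1 at −0.96 and PFKL at −0.79. The median of the 23 glycolytic genes was 0.32. Other targets of the hypoxia-inducible factor included ANGPTL4 (3.005, 2.98 and 14.9 FPKM, a ratio of 1.996) and the collagen hydroxylase gene P4HA1 (10.2 with control siRNA and 28.6 with EHMT2 siRNA, 1.40). The list's median was 0.41, while VEGFA stood at −0.17, DDIT4 at −0.68 with 41.2% of its exonic bases shared, and MXI1 at −0.68.

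The BMP branch of TGF-beta signalling showed opposed members. ID1 and ID3, BMP-induced inhibitors of differentiation factors, had 179.8, 157.9 and 36.3 FPKM and 57.5, 53.3 and 11.03 FPKM, with ratios of −2.09 and −2.17. Both were close to level in the references, and the EHMT2 siRNA library held 23.0% and 20.7% of the control siRNA level. The inhibitory SMAD genes stood at the other end: SMAD7 had 0.836, 1.62 and 8.70 FPKM (1.89) and SMAD6 had 0.956, 2.02 and 6.49 (1.31). LAMB3 (1.68), SKIL (1.27) and VIM (1.14), which encodes vimentin, were also 2-fold higher, and PLAU was at −1.26 with 31.1% of its exonic bases shared. SPARC was listed at 0 with EHMT2 siRNA and had 3.41 and 1.56 FPKM in the references. Among 8 measured keratins, KRT19 had 407.9, 495.7 and 174.5 FPKM (−1.50) and KRT18 had 445.5, 469.4 and 997.0 (1.09), with KRT8, the partner of KRT18, at 0.51.

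Germline genes and some imprinted genes are known to be silenced by G9a in embryonic stem cells, and both groups were read here. Of 52 germline and cancer-testis genes, 10 were measured, and those near 0 with control siRNA, such as TEX14 and STAG3, could pass only by being higher. Of the 6 at 1 FPKM or more in untransfected cells, 5 were higher than with control siRNA, 0 were 2-fold higher and the median was 0.36. The median of the whole list with no filter was 0. TEX14, needed for bridges between germ cells, had 0.475, 0.312 and 3.28 FPKM (1.71) and the meiotic cohesin gene STAG3, with 32.3% of its exonic bases shared, 0.752, 0.925 and 5.83 (1.83). PRAME had a ratio of −0.87. Of 24 imprinted genes 14 were measured. NNAT (GRCh38 chromosome 20, 37521206 to 37523693, plus strand), an imprinted gene of membrane proteolipids, was listed at 0 in untransfected cells and had 0.211 FPKM with control siRNA and 8.73 with EHMT2 siRNA (3.01). It lies within the bounds of BLCAP (chromosome 20, 37492472 to 37527931, minus strand), which had 11.9, 12.0 and 58.4 FPKM (2.19). NNAT and BLCAP share 6.4% and 1.1% of their exonic bases. CDKN1C was the other 2-fold higher imprinted gene, PEG10 had 4.41, 3.46 and 1.22 FPKM (−1.003), and the median of the 14 was 0.22, or 0 over the whole list with no filter.

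Of genes at 5 FPKM or more in either siRNA library, the largest higher ratios that rest on little shared sequence were those of NNAT, SLC2A3, SUN3, BEST1, C2orf92, the histone gene HIST2H2AA4, SAMD4A, CCDC84 and OSGIN1. SAMD4A, a repressor of translation, had 2.50, 3.68 and 30.1 FPKM (2.73), and CCDC84, a splicing-associated gene, had 7.82, 10.2 and 73.0 (2.72). Both were low in both references. SUN3 had 3.28, 0.919 and 13.8 FPKM (2.95). BEST1 had 14.9, 0.767 and 11.2 FPKM, a ratio of 2.78 against control siRNA and −0.38 against untransfected cells. C2orf92 was listed at 0 with control siRNA and at 5.84 FPKM with EHMT2 siRNA. Several of the highest ratios belong to genes that share much of their sequence with a neighbour: AC087721.2 (3.62, 100% shared, mainly with NUSAP1), AC253536.7 (3.21, 92.8%), PTP4A1 (3.08, 79.0%) and OPN3 (2.85, 55.5%). C21orf59-TCP10L, whose sequence overlap with neighbours was not computed, had 0.522 FPKM with control siRNA and 9.03 with EHMT2 siRNA (2.72). At the locus of PIK3R2 and AC007192.1, which share 87.2% and 96.1%, PIK3R2 had 1.94, 33.6 and 5.07 FPKM (−2.51 against control siRNA) and AC007192.1 had 24.8, 0 and 5.74, so their levels cannot be told apart.

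Under the same limits the largest lower ratios were those of NME4 (−2.43), ADAM19 (−2.42), DHRS2 (−2.39), RAB26 (−2.32) and SERPINH1 (−2.31). ADAM19, a membrane metalloprotease gene, had 38.8, 68.3 and 12.0 FPKM, and SERPINH1, the collagen chaperone gene, had 30.8, 60.1 and 11.4. In both the control siRNA library was highest, and the knockdown library was also below untransfected cells. NME4, a mitochondrial nucleoside diphosphate kinase gene, had 27.7, 46.7 and 7.83 FPKM, and CHPF, a chondroitin polymerizing factor gene, had 77.5, 118.6 and 25.9 (−2.15). DHRS2, a reductase gene, had 7.95, 8.62 and 0.830 FPKM and was the gene with the lowest share of its control level among those named, 9.63%, apart from genes listed at 0. CYP24A1, which degrades active vitamin D, had 73.4, 67.3 and 15.4 FPKM (−2.06), and PDE4B, a cyclic AMP phosphodiesterase gene, had 31.5, 20.2 and 4.14 (−2.04). Ratios of DHRS2, ID1, ID3, CYP24A1 and PDE4B were beyond −2 against either reference. EPN1 had a ratio of −2.05 and PYCR1, with 29.7% of its exonic bases shared, −1.91. BLOC1S5-TXNDC5, which shares all of its exonic bases, was listed at 0 with EHMT2 siRNA and at 12.1 FPKM with control siRNA.

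The same knockdown in 5-FU resistant cells shares no library with the parental pair. There EHMT2 had 19.5 FPKM with control siRNA and 3.80 with EHMT2 siRNA (−2.09), and 613 of 11750 genes (5.22%) were 2-fold higher and 475 (4.04%) lower. Over 11545 genes measured in both pairs, the ratios correlated with Pearson's r of 0.826 and Spearman's rho of 0.827. This is across genes, which are not independent replicates. Of the 894 genes higher in parental cells 399 were also 2-fold higher in resistant cells, which is 44.6% of the parental and 65.1% of the resistant list. Of the 419 lower genes 271 were shared, 64.7% of the parental and 57.1% of the resistant list. Opposite 2-fold differences were found for 3 and 4 genes. The 2-fold higher parental genes had a median ratio of 1.28 in parental and 0.93 in resistant cells, and the lower genes −1.21 and −1.15. Both sets were chosen by the parental ratio.

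**Figure D5:**
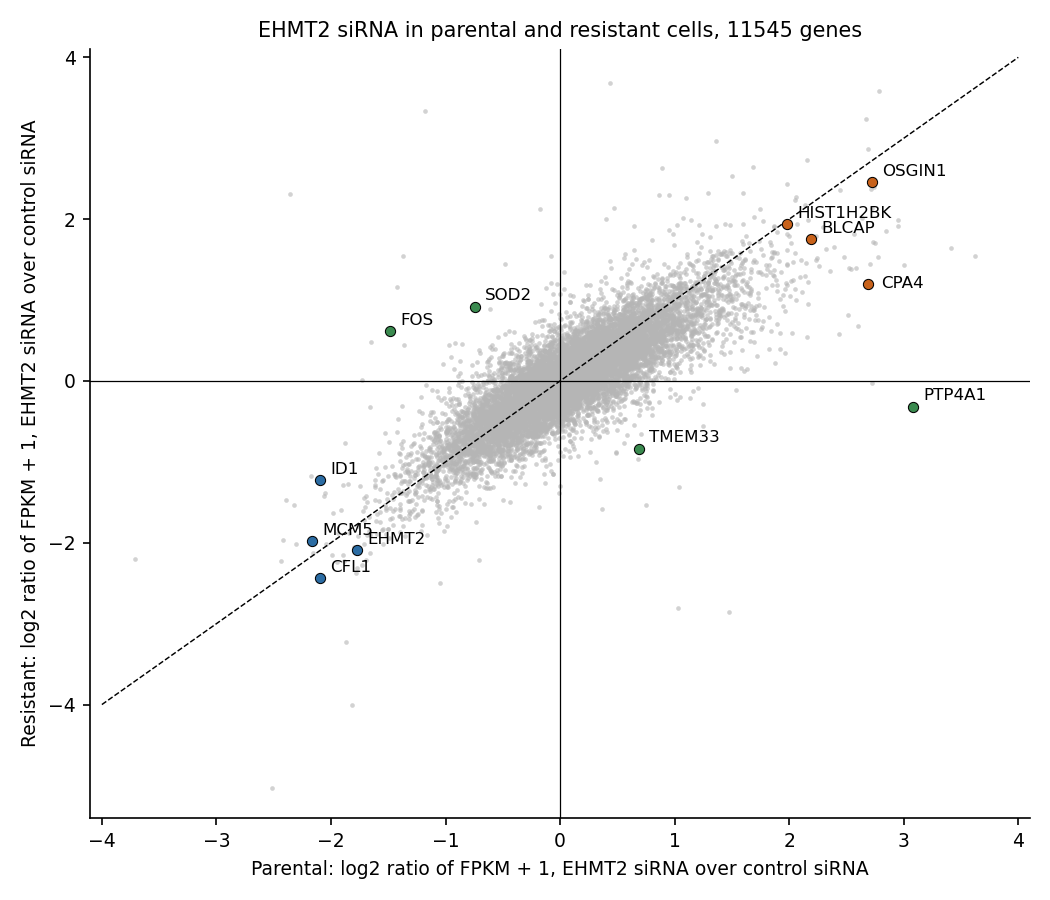
Log2 ratio of EHMT2 siRNA to control siRNA in parental (horizontal axis) and resistant cells (vertical axis), 1 point per gene measured in both pairs, with the dashed line marking equal ratios. Most points lie along the line (r = 0.826), while FOS, SOD2, TMEM33 and PTP4A1 (green) lie in the quadrants of opposite sign.

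List medians in resistant cells had the parental sign for replication (−0.71), G2/M (−0.78), histones (1.19), YAP targets (0.78), NRF2 targets (0.53) and interferon-stimulated genes (0.81). They were taken over the members measured in the parental pair. Of the 24 such histone genes, 13 were 2-fold higher in resistant cells, where 5.22% of all genes were, and 21 in parental cells. MCM5 had a ratio of −1.98, HIST1H2BK 1.94, OSGIN1 2.46, CFL1 −2.44 and BLCAP 1.75 in resistant cells. NNAT was listed at 0 with control siRNA there and at 1.70 FPKM with EHMT2 siRNA. The ratios of ID1 and ID3 were −1.23 and −1.18, that of CPA4 1.199 and that of CDKN1A −0.21. The difference between the lines was not tested, since each ratio rests on 1 library a side.

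Differences between the lines were ranked where an siRNA library of each line held 5 FPKM or more, a limit that PTP4A1, AC253536.7 and C21orf59-TCP10L did not meet in resistant cells. Several of the genes with a large difference share exonic bases with a neighbour. The parental ratio was above the resistant one for PIK3R2, IFI30 (−1.81 against −4.001, 40.2% shared), AC004922.1 (2.44 against 0.58, 92.1% shared), CPA4 and TMEM33. It was below for AC023055.1 (0.75 against 5.01, 90.1% shared), AL157935.2 (1.37 against 2.97, 88.8% shared), PDXP (−0.17 against 2.12, 62.6% shared), ITM2B, FOS and SOD2. Of those that share little, TMEM33, a gene of an endoplasmic reticulum membrane protein, had 12.8 FPKM with control siRNA and 21.2 with EHMT2 siRNA in parental cells (0.69) and 19.8 and 10.6 in resistant cells (−0.84). SOD2, the mitochondrial superoxide dismutase gene, had 34.4 and 20.1 FPKM in parental (−0.75) and 27.4 and 52.7 in resistant cells (0.92). ITM2B was higher with EHMT2 siRNA in both lines, with 25.6 and 48.3 FPKM in parental (0.89) and 12.6 and 83.4 in resistant cells (2.63). FOS had 4.93 and 8.07 FPKM in the resistant siRNA libraries (0.61), against 14.99 and 4.71 in the parental ones (−1.48).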

How the data were processed

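RNA was sequenced from 6 libraries of HCT116 cells, 1 per condition. Per the labels' protocols, the TruSeq RNA sample kit v2 was used on total RNA. The deposited values are FPKM per gene and library, as named by the authors' files. Per the submitters' processing notes, the tools were HISAT2 2.2.1, StringTie 2.1.1, FastQC 0.12.1 and cutadapt 4.9 and the build was GRCh38, without roles or order. The sources used here do not give the annotation release, the strand setting or the number of reads. Depth and counting error are therefore unknown. The series text speaks of independent replicates, and further libraries were not analysed here.

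Each table held 19957 rows. Of rows with the same symbol, that of highest mean was used, leaving 19942 symbols, and 19887 of them had an entry in GENCODE 29, which gave the coordinates and the share of exonic bases that other genes also cover. Log2 ratios were computed after adding 1 to each FPKM, for genes with 1 FPKM or more in either library of a pair, and counted at 2-fold. No test was made, as each condition is 1 library. The ratio and count steps were tested on simulated data. Python 3.11.15, numpy 2.4.6 and pandas 2.3.3 were used.

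Genes named are EHMT2, EHMT1, TYMS, TK1 and CDKN1A, the 15 highest and 15 lowest ratios at 5 FPKM or more, the 8 highest and lowest by the ratio nearer 0 of both references, 6 at each end by parental minus resistant ratio, and, of each list described, members 2-fold apart and the 3 highest and lowest. Some genes and 1 list that this rule covers are not reported here. A few others, such as KRT8 and RHBDF1, and the promoters printed were picked with their values in view. The members and lists were chosen with earlier results of these data known. A gene sharing 25% or more of its exonic bases has an uncertain level and is given with that share. Promoters (300 bases) are from RefSeq and were matched by symbol. Alternatives were another pseudocount, filter, threshold, scaling or reference, and leaving out genes that share exons.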

Additional observations from a re-analysis of the deposited data

Results flagged for a closer look

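EHMT2 siRNA against control siRNA gave opposite signs in the parental and the resistant pair for 4 named genes and 1 gene list, counting those at least 0.25 away from 0 in both pairs. Opposite signs with a smaller ratio in either pair, as for CDKN1A, PDXP and the medians of the heat shock and immediate early lists, are not counted. Each side is 1 library and the difference was not tested. FOS had a ratio of −1.48 in parental and 0.61 in resistant cells. In untransfected cells FOS was at 344.8 FPKM, far above each parental siRNA library. SOD2 had −0.75 and 0.92, and TMEM33 had 0.69 and −0.84. PTP4A1 had 3.08 and −0.32, and it shares 79.0% of its exonic bases with another gene. The genes encoded by mitochondrial DNA had a median of −0.49 in parental and 0.35 in resistant cells. Their share of the summed FPKM was 22.0% with control siRNA and 18.0% with EHMT2 siRNA in parental cells, and 9.74% and 12.4% in resistant cells.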

How the results depend on the processing

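Every value rests on 1 library per condition, and depth is unknown, so counting error could not be given. No paired analysis was possible because each group holds 1 library and the result comes from no test. The 2-fold counts of 894 higher and 419 lower genes became 1383 and 678 with a pseudocount of 0.1, 2413 and 1525 at 1.5-fold, and 66 and 16 at 4-fold, where 80.5% were higher. With untransfected cells as the reference 698 genes were lower, and the EHMT2 ratio was −1.12. Both counts stayed within 1.5 times of their value with no filter, a filter of 5 FPKM, each scaling and without genes that share exons, and also under a filter on untransfected cells, which was chosen after seeing the data. Of the named genes 2-fold apart, none changed sign under the pseudocount or the scalings, but 8 were below 2-fold with the median ratio set to 0, 19 with the libraries rescaled to the same sum and 12 after quantile normalisation. ECT2 and HMMR, which are near 0, turned to −0.06 and −0.08 with the median set to 0 and to −0.01 and −0.06 after quantile normalisation. The medians near 0 of the actin (−0.05 with the median set to 0), H3K9 methyltransferase (0.01) and ATF4 and CHOP lists (0.08, both rescaled to the same sum) also turned. With untransfected cells as the reference the sign turned, among named genes 2-fold apart, for AC007192.1 (−1.93), BEST1 (−0.38), CCN1 (−1.74), CDC25A (0.18), IRF7 (−0.24), JUN (−0.78), NR4A1 (−1.09), PIK3R2 (1.05) and PPP1R15A (−1.18), among the others for EHMT1 (0.55), EIF3M (−0.006), HIST3H2A (−0.23), HMMR (−0.28), HSPA1A (0.79), HSPH1 (1.0005), PPHLN1 (−0.02), RPL27 (−0.64) and RPL9 (−0.80), and for the medians of the G1/S (0.19), immediate early (−1.37) and heat shock (0.69) lists. The median was 0 for mitochondrial DNA genes after quantile normalisation and 0 for germline, imprinted and ATF4 and CHOP genes with no filter. The histone median was 0.59 with no filter, 2.05 with a filter of 5 FPKM and 2.54 with a pseudocount of 0.1. The cause was not tested.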

Other observations

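Stress genes separated the untransfected cells from both siRNA libraries. ATF4 and CHOP target genes, which respond to amino acid shortage and to stress of the endoplasmic reticulum, had a median ratio of −1.04 for control siRNA over untransfected and −1.09 for EHMT2 siRNA over untransfected, but −0.04 between the siRNAs. TRIB3 had 77.0, 12.3 and 7.15 FPKM in the untransfected, control siRNA and EHMT2 siRNA libraries, and PPP1R15A had 82.3, 15.7 and 35.9. PHGDH, the first enzyme of serine synthesis, was also lower at each step, with 67.1, 50.3 and 21.4 FPKM. Heat shock chaperones had the opposite order. All 19 measured members were higher with control siRNA than in untransfected cells (median 0.95), and 14 of them were lower with EHMT2 siRNA than with control siRNA (median −0.43). HSPA1A had 24.4, 71.8 and 43.1 FPKM and HSPH1 had 18.2, 67.1 and 37.5. The small chaperone gene HSPB8 was the 2-fold higher member among the other 5, with 1.47, 2.37 and 10.3 FPKM.

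Transcripts of mitochondrial DNA were lower at each step in parental cells: 12 of 13 had less with EHMT2 siRNA than with control siRNA (median −0.49, and 0 after quantile normalisation), and the control siRNA median against untransfected cells was −0.41. MT-CO3, a subunit of cytochrome oxidase, had 15286, 9870 and 6226 FPKM. Nuclear genes of the respiratory chain did not follow. Of these, 51 of 75 were higher, where 56.2% of all measured genes were, and the median was 0.21 against 0.09. Few were 2-fold apart: 3 were higher (4% against 7.48% of all genes) and 2 were lower (2.67% against 3.51%). NDUFB4 was at −1.41. Because FPKM is a share of each library, the part of these abundant transcripts in the ratios of other genes was not tested.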
